A study of Mus musculus with 8 samples.

Results

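The complement components and receptors described here are 9 genes: C1qa, C1qb, C1qc and C4b of the classical pathway, C3, Cfb and Cfp of the central and alternative part of the cascade, and the receptors C3ar1 and C5ar1. They were taken by name from the 33696 genes of the single-cell matrices, and all 9 were found. The cells were live CD45+ leukocytes (CD45 marks cells of the blood lineages) sorted from liver metastases of mice, collected at day 30 after colorectal cancer cells, named Venus-AKTPM/LOH, had been injected into the spleen. The 2 Vav1CreTet2KO mice carried Cre under Vav1, a promoter active throughout the blood lineages, and lacked Tet2, a dioxygenase that oxidizes methylated cytosine in DNA. The 2 Tet2fl/fl control mice carried the floxed Tet2 allele. Both genotypes received the same tumour cells. Each mouse was labelled a separate biological replicate and gave 1 5' gene expression library, and the age and sex of the mice were not given in the sources used here. The question addressed is how the 9 genes were distributed over the leukocyte types of these tumours, and how they differed between Tet2 KO and control mice within a type.

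Complement is a cascade of blood and tissue proteins that marks particles and cells for uptake. C1q, built from the products of C1qa, C1qb and C1qc, starts the classical pathway when it binds antibody or dying cells, and is made mainly by macrophages and some dendritic cells. C4b is cleaved early in the classical and lectin pathways. C3, which the liver makes in bulk and myeloid cells make locally, is the point where all pathways meet. Factor B (Cfb) and properdin (Cfp) form and stabilize the alternative pathway enzyme that cleaves C3. The small fragments C3a and C5a signal to myeloid cells through C3ar1 and C5ar1.

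The C1q genes lie side by side on chromosome 4 of GRCm39 (GENCODE annotation), all on the minus strand. C1qb (ENSMUSG00000036905) spans chr4:136606009-136613511, C1qc (ENSMUSG00000036896) chr4:136616466-136620376 and C1qa (ENSMUSG00000036887) chr4:136623223-136626161, so that the 3 genes fill 20153 bases with gaps of 2954 and 2846 bases. C3 (ENSMUSG00000024164) lies at chr17:57510964-57535155, Cfb (ENSMUSG00000090231) at chr17:35074852-35081559 and C4b (ENSMUSG00000073418) at chr17:34947354-34962912. C3ar1 (ENSMUSG00000040552) lies at chr6:122823393-122833122, C5ar1 (ENSMUSG00000049130) at chr7:15980668-15993465 and Cfp (ENSMUSG00000001128) at chrX:20791688-20797794. These 6 genes are on the minus strand too. C4b has a near-identical neighbour, C4a, and Cfb lies next to C2 on the same strand, so reads of these genes can be split or shared between neighbours.

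Promoters are shown for the pair of neighbouring C1q genes that have an entry, whose RNA was found together in the same cells, and for both anaphylatoxin receptors, which were called lower together in Tet2 KO monocyte/macrophage-like cells. They run from 250 bases before to 50 bases after the start, 5′ to 3′ on the minus strand, from RefSeq on GRCm38.p6, a build other than that of the matrices. The table held 6 of the 9 genes (C1qb, C1qc, C3, C3ar1, C5ar1 and Cfp). Capitals mark matches, on either strand, to GAGGAA (a box read by ETS factors such as PU.1) and to TGCTGA (a MAF-type site).
C1qb, chr4:136886151-136886450: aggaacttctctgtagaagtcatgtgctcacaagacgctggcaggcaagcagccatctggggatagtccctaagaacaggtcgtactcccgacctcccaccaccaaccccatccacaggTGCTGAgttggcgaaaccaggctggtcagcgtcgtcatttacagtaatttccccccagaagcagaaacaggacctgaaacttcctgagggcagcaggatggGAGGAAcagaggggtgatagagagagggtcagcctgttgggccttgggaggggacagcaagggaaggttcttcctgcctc
C1qc, chr4:136892865-136893164: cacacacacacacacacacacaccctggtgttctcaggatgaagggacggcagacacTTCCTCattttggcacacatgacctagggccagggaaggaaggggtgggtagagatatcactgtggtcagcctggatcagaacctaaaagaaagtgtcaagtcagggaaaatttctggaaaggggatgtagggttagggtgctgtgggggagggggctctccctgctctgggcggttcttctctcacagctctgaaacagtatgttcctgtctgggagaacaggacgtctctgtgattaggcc
C3ar1, chr6:122856108-122856407: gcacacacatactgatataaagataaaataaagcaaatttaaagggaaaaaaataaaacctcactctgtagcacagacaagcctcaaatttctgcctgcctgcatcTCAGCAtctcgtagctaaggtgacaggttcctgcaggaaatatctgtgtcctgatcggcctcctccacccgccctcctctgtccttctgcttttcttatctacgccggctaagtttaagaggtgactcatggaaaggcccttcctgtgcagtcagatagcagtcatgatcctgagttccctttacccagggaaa
C5ar1, chr7:16259289-16259588: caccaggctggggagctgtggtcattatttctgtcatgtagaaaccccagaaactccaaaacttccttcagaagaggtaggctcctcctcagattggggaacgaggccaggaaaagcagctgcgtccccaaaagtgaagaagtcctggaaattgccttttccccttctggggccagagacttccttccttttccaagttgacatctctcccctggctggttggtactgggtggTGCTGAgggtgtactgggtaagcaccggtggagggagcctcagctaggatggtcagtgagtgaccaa
C1qb held TGCTGA 131 bases and GAGGAA 30 bases before the start, and C1qc held GAGGAA on the other strand 193 bases before it. TGCTGA stood 144 bases before the start of C3ar1, on the other strand, and 17 bases before that of C5ar1. The C3 promoter held TGCTGA and the CEBP-type letters TTGCGNAA, at 182 and 45 bases before the start, and that of Cfp held GAGGAA at 7 and 23 bases after it. GAGGAA occurred in 28.3% and TGCTGA in 19.5% of 32851 mouse promoters of the same length, and TTGCGNAA in 0.798%. A 10-letter repeat of the interferon-response type, found in none of the 6 promoters, occurred in 3.44%. A match describes letters and shows neither binding nor a cause.

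Tet2 KO libraries held 57190926 and 60456627 UMIs (unique molecular identifiers, each a captured RNA molecule) in 10917 and 11743 cell barcodes, against 89945864 and 91789597 UMIs in 12494 and 13870 barcodes in control libraries. Between 9837 and 12185 cells per mouse were used after filtering, and any pair of libraries shared 156 to 182 cell barcodes (1.35% to 1.69% of a library's cells). Cells were grouped by clustering and named from fixed markers. Of 61 comparisons of a marker in its class with the other cells, 60 were higher in every mouse, the exception being Ccr7 in conventional dendritic-like cells. Clusters were named by higher levels of these same markers, so this count describes the classes and does not test their names. The make-up differed widely: monocyte/macrophage-like cells formed 8.06% and 10.7% of Tet2 KO cells, against 54.5% and 61.0% of control cells, and B-like cells 43.0% and 45.4% of Tet2 KO cells, against 6.19% and 5.02% of control cells. Tet2 itself stood at 43.1 and 43.8 CPM (UMIs of a gene per 1000000 UMIs of those cells in that mouse) in Tet2 KO monocyte/macrophage-like cells, against 68.5 and 69.8 CPM in control ones, a log2 fold change of -0.78 (SE 0.109, adjusted p = 0.00642). Without Tet2 KO mouse 1 or mouse 2 this call was lost (adjusted p = 0.108 and 0.0900). The deleted exon is not given in the sources used here, and 5' reads from outside it do not test the deletion.

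Of the named classes, monocyte/macrophage-like cells had the highest mean level per UMI of every member except C5ar1 and properdin. C1qb averaged 946 ± 459 CPM in these cells (SD, n = 4 mice), above 90.9 ± 105 CPM in conventional dendritic-like, 79.2 ± 73.0 CPM in plasma-like and 16.3 ± 18.3 CPM in neutrophil-like cells. The ranges over mice of these lower classes overlapped. C1qa and C1qc had the same leading class, at 563 ± 205 and 515 ± 203 CPM, and stood at 12.9 CPM or less in T-like cells of every mouse, as did C1qb. C3 was at 194 ± 46.7 CPM in monocyte/macrophage-like and 154 ± 21.5 CPM in neutrophil-like cells, whose ranges overlapped, and at 10.2 ± 5.19 CPM in conventional dendritic-like cells, below the range of both. Cfb, at 99.9 ± 11.5 CPM, and C3ar1, at 82.8 ± 35.7 CPM, were likewise highest in monocyte/macrophage-like cells, while C4b was low throughout, at 5.35 ± 5.01 CPM in its highest class. Since clusters were made from these cells, levels across classes are a description and carry no test.

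The receptor for C5a and properdin had other leading classes. C5ar1 averaged 808 ± 112 CPM in neutrophil-like cells, with a range over mice (674 to 917 CPM) that lay wholly above that of monocyte/macrophage-like cells (48.3 to 182 CPM). Cfp averaged 309 ± 180 CPM in conventional dendritic-like, 188 ± 64.5 CPM in monocyte/macrophage-like and 143 ± 10.3 CPM in neutrophil-like cells, 3 levels that overlapped over mice. In Tet2 KO mouse 1 the order was reversed, at 113 CPM in conventional dendritic-like, 131 CPM in monocyte/macrophage-like and 155 CPM in neutrophil-like cells. Plasmacytoid dendritic-like cells also held Cfp, at 248.8 and 274 CPM in Tet2 KO mice and 142 CPM in control mouse 2, control mouse 1 having 1 such cell with no Cfp UMI. Cfp in B-like cells was 12.97 and 15.8 CPM in Tet2 KO mice, against 25.7 and 44.5 CPM in control mice.

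**Figure D1:**
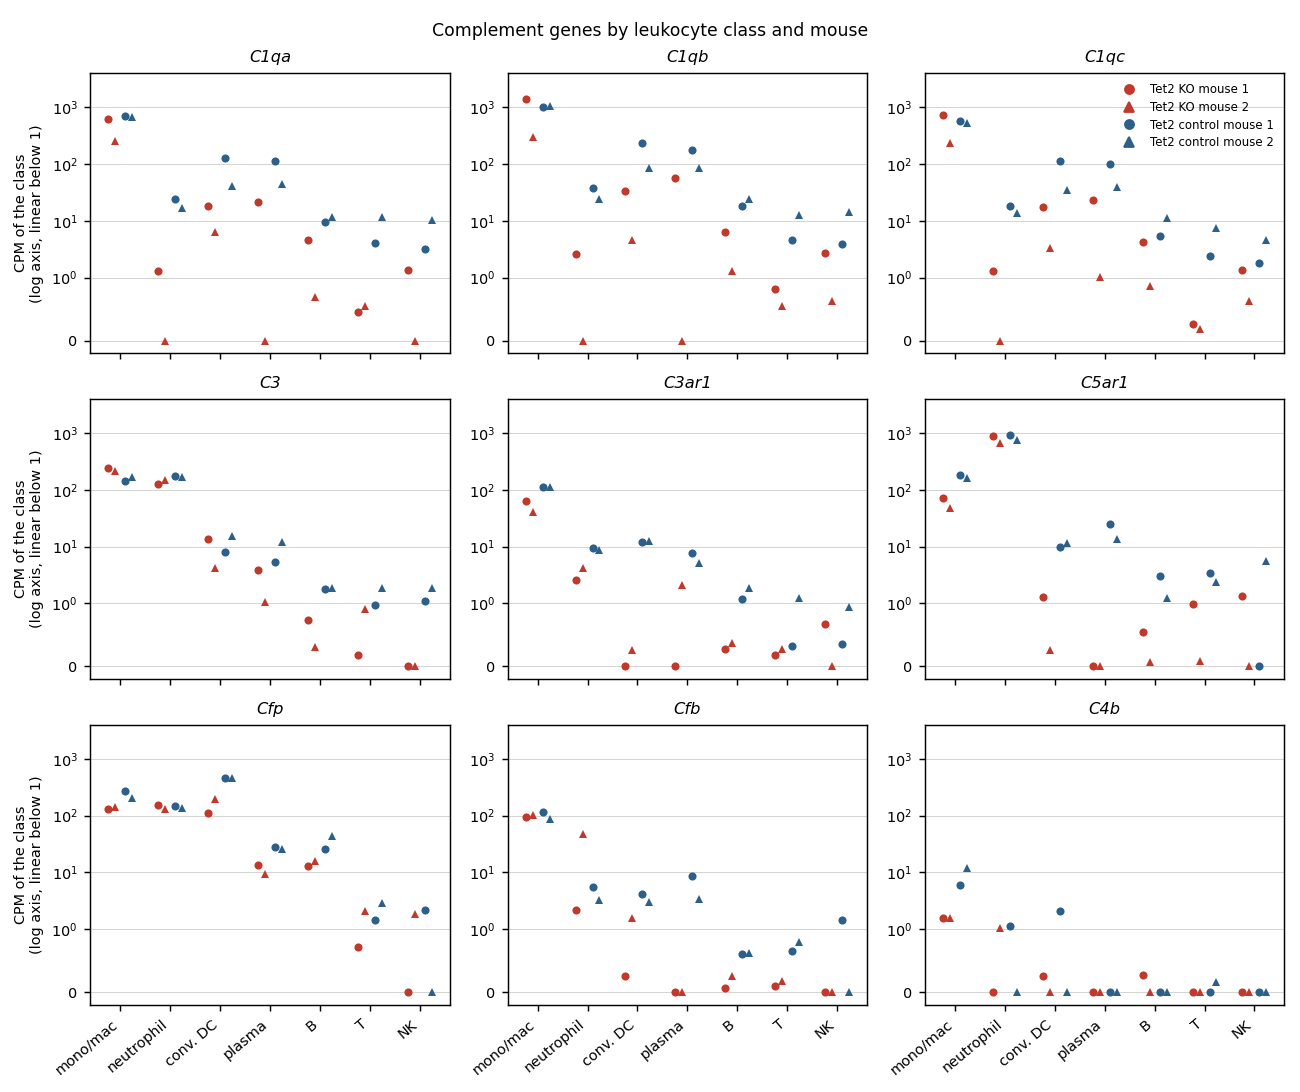
Level of the 9 complement genes by leukocyte class. Each panel is 1 gene, the vertical axis is CPM on a symmetric log scale, and each point is 1 mouse, Tet2 KO left of control. The C1q genes, C3ar1, Cfb and C4b peak in monocyte/macrophage-like cells, C5ar1 peaks in neutrophil-like cells, and Cfp has its highest mean in conventional dendritic-like cells.

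T-like and neutrophil-like cells, which are not known as sources of C1q, held few C1q UMIs. The 3 chains summed to 1.53 and 1.27 CPM in Tet2 KO T-like cells and to 10.99 and 32.0 CPM in control ones, which is 0.288%, 0.609%, 0.612% and 1.82% of the level of their own libraries. In neutrophil-like cells the sum was 5.20 CPM in Tet2 KO mouse 1, with no C1q UMI in Tet2 KO mouse 2 (3 counts there being 3.14 CPM), against 80.4 and 55.3 CPM in control mice, which is 0.978% of the library level in Tet2 KO mouse 1, against 4.48% and 3.14% in control mice. The chains C1qa, C1qb and C1qc made up 30.0%, 47.5% and 22.5% of the C1q UMIs in neutrophil-like cells of control mouse 1 and 30.8%, 44.3% and 24.9% in those of control mouse 2. In T-like cells they made up 36.8%, 41.2% and 22.1% in control mouse 1 and 36.5%, 40.4% and 23.2% in control mouse 2. The monocyte/macrophage-like proportions were 30.1%, 45.1% and 24.8% in control mouse 1 and 29.5%, 47.3% and 23.2% in control mouse 2. How much of this C1q was free RNA and how much the cells' own was not tested. Conventional dendritic-like cells stood higher, at 6.90% to 26.6% of the library level.

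Between genotypes, 4 of the 9 genes were lower in Tet2 KO monocyte/macrophage-like cells: C5ar1, C3ar1, Cfp and C4b. The C1q chains and Cfb did not pass the test, and C3, the gene with the largest positive difference, missed it narrowly. Of the 13898 genes tested in these cells, 14.8% were called (edgeR quasi-likelihood test on UMI sums per mouse, Benjamini-Hochberg adjusted p under 0.05), 7.94% lower and 6.81% higher, and 33.0% had an unadjusted p under 0.05. The median log2 fold change was -0.73 over the 9 members and 0.01 over all genes tested. No member was called higher, 1 was higher at an unadjusted p under 0.05, and DESeq2 called 5 members, 1 of them higher. All 9 passed the filter on low counts. With 2 mice per genotype, every edgeR p-value rests on the spread within pairs of mice, moderated toward a trend over all genes. It does not measure a gene's own spread alone. The smallest p an exact permutation of mice can give is 0.33.

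The receptors gave the clearest differences. C5ar1 stood at 70.7 and 48.3 CPM in Tet2 KO mice 1 and 2, against 182 and 164 CPM in control mice 1 and 2. It fell by 1.66 on the log2 scale (SE 0.168, adjusted p = 0.00273). C3ar1 stood at 64.3 and 41.5 CPM in Tet2 KO mice, against 112 and 113 CPM in control mice, and fell by 1.21 on the log2 scale (SE 0.180, adjusted p = 0.00923). For both receptors the Tet2 KO mice lay below both control mice. Cells were thinned to 1000 UMIs, and shallower cells were left out. C5ar1 was then detected in 6.37% and 4.40% of Tet2 KO cells, against 14.7% and 13.7% of control cells (exact permutation p = 0.33). The same share in T-like cells, which should lack the receptor, was 0.142% and 0% in Tet2 KO and 0.156% and 0.274% in control mice. Median depths before thinning were 9132 and 7833 UMIs in Tet2 KO against 8674 and 7234 UMIs in control monocyte/macrophage-like cells, and 4350 and 4310 UMIs in Tet2 KO against 3795 and 3386 UMIs in control T-like cells.

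Properdin and C4b were also lower. Cfp stood at 131 and 143 CPM in Tet2 KO monocyte/macrophage-like cells, against 271 and 208 CPM in control ones (log2 fold change -0.91, SE 0.154, adjusted p = 0.0123). C4b had 12 and 15 UMIs in Tet2 KO mice, against 340 and 700 UMIs in control mice, which is 1.58 and 1.60 CPM against 6.05 and 12.2 CPM (log2 fold change -2.62, SE 0.456, adjusted p = 0.0189). Neither gene's groups overlapped, and the neighbour C4a makes the C4b count uncertain. Leaving out Tet2 KO mouse 2 ended the calls of all 4 genes, since no gene at all was then called (adjusted p = 0.0591 for C5ar1, 0.0781 for C3ar1, 0.117 for Cfp and 0.183 for C4b). Leaving out Tet2 KO mouse 1 ended those of Cfp and C4b (adjusted p = 0.149 and 0.203). The lone mouse is in such a fit assumed to vary like the control group, and all 4 genes remained lower. Markers of other classes moved with genotype in these cells too. The 10 conventional dendritic markers, all detected in every mouse, summed to 237 and 285 CPM in Tet2 KO mice, against 80.7 and 55.0 CPM in control mice. The 8 B cell markers summed to 35.2 and 41.3 CPM in Tet2 KO mice, against 10.3 and 9.31 CPM in control mice, with all 8 detected in every mouse. The 7 NK markers summed to 35.3 and 51.2 CPM in Tet2 KO mice, with Klra8 at 0 in both, against 9.46 and 6.67 CPM in control mice. The part of these cells in the member values was not tested.

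**Figure D2:**
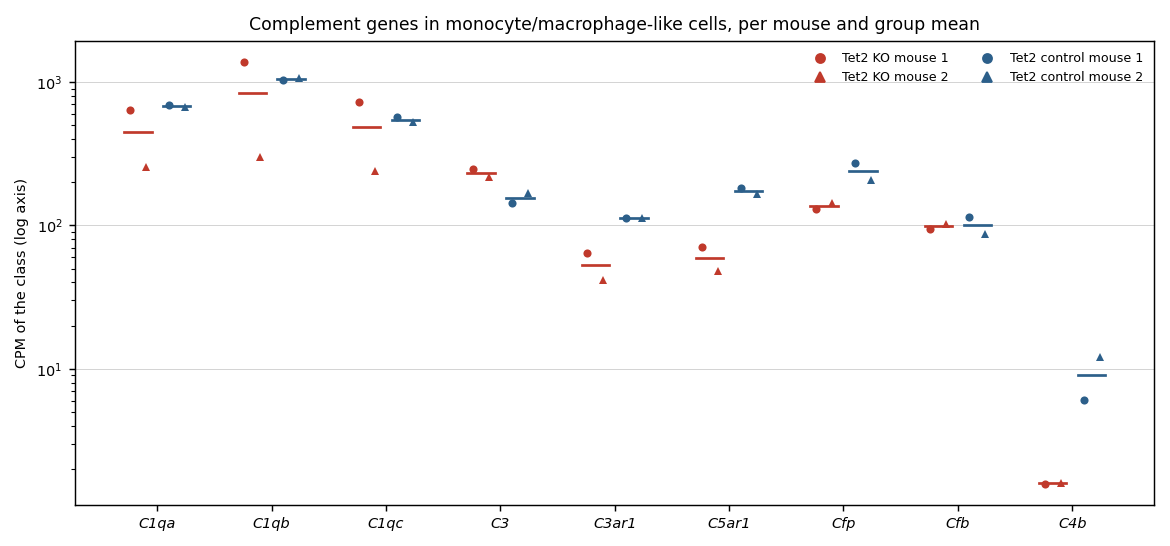
The 9 complement genes in monocyte/macrophage-like cells. The vertical axis is CPM on a log scale, points are the 4 mice with Tet2 KO left of control, and bars are group means. C5ar1, C3ar1, Cfp and C4b lie lower in both Tet2 KO mice than in both control mice, C3 lies above, at 246 and 219 CPM in Tet2 KO and 143 and 170 CPM in control mice, and the C1q chains are split by the difference between the Tet2 KO mice.

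The C1q chains differed between the Tet2 KO mice more than between genotypes. C1qb stood at 1383 and 299 CPM in Tet2 KO mice 1 and 2, against 1036 and 1065 CPM in control mice, and did not pass the test (log2 fold change -0.46, SE 0.835, adjusted p = 0.758). C1qa stood at 637 and 258 CPM in Tet2 KO mice against 691 and 665 CPM in control mice (adjusted p = 0.350), and C1qc at 728 and 240 CPM in Tet2 KO mice against 569 and 522 CPM in control mice (adjusted p = 0.767). Tet2 KO mouse 1 was thus above or near the control mice and Tet2 KO mouse 2 far below them. Without Tet2 KO mouse 2 the log2 fold changes of C1qb and C1qc turned to 0.24 and 0.26, and without Tet2 KO mouse 1 that of C1qb was -1.88 with an adjusted p of 0.0463. Chain proportions moved as well: C1qb made up 50.3% and 37.6% of C1q UMIs in Tet2 KO mice, against 45.1% and 47.3% in control mice. The chains were found together in cells. Among cells thinned to 2000 UMIs, 14.7% and 5.58% of Tet2 KO cells held all 3 chains and 73.5% and 89.9% held none, against 20.1% and 18.0% with all 3 and 65.1% and 66.4% with none in control mice. Haemoglobin and other erythroid genes, a list of 6, separated the Tet2 KO mice in these cells too, at 0.132 and 258 CPM, against 79.0 and 61.3 CPM in control mice, with 5 of the 6 at 0 in Tet2 KO mouse 1, and their part in the C1q difference was not tested.

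C3 had the opposite sign to the receptors. It stood at 246 and 219 CPM in Tet2 KO monocyte/macrophage-like cells, against 143 and 170 CPM in control ones, a log2 fold change of 0.46 (SE 0.129) with an adjusted p of 0.0534. The groups did not overlap. Over 11 alternative settings with all mice kept, the adjusted p lay between 0.0274 and 0.0950, and C3 was called under 7 of them. It was also called without control mouse 1 or control mouse 2 (adjusted p = 0.0393 and 0.00236), and was not called without Tet2 KO mouse 1 or Tet2 KO mouse 2 (adjusted p = 0.296 and 0.225). C3 was detected in 20.9% and 19.0% of Tet2 KO cells, against 12.9% and 15.2% of control cells, after thinning to 1000 UMIs (exact permutation p = 0.33). Cfb, whose product joins C3b in the alternative pathway, was at 95.0 and 103 CPM in Tet2 KO mice, against 114 and 87.4 CPM in control mice, and its groups overlapped (log2 fold change -0.13, SE 0.152, adjusted p = 0.588). A list of 10 hepatocyte genes, the liver being the main source of C3, summed to 22.3 and 4.36 CPM in Tet2 KO and to 4.02 and 2.92 CPM in control monocyte/macrophage-like cells, with Serpina1a at 0 in Tet2 KO mouse 1 and Serpina1a and Cyp2e1 at 0 in control mouse 2. Its part in the C3 value was not tested.

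The class held different cells in the 2 genotypes. Sub-cluster 0, led by Slc40a1, Gpnmb, Spic and Igf1 and left unnamed, formed 39.0% and 35.7% of Tet2 KO monocyte/macrophage-like cells, against 18.1% and 4.47% of control ones. Sub-cluster 6, like sub-cluster 5 patrolling monocyte-like by its markers, formed 41.5% and 43.2% of Tet2 KO cells, against 2.60% and 0.323% of control cells. Sub-cluster 7, mature macrophage-like and led by Ccl8 and Cxcl9, took 7.19% and 6.31% in Tet2 KO and 5.24% and 7.37% in control mice. Control cells lay mostly in 6 other sub-clusters. Among them was sub-cluster 3 (classical monocyte-like), which held 14.8% and 26.0% of control cells, against 1.39% and 1.07% of Tet2 KO cells. Another was the patrolling monocyte-like sub-cluster 5, with 11.7% and 16.2% of control cells, against 1.64% and 2.58% of Tet2 KO cells. Complement levels were therefore also compared within sub-clusters with at least 30 cells in every mouse, which were numbers 0, 7 and 11. Sub-cluster 11, cycling cells with Elane, was left unnamed. It formed 5.42% and 4.44% of Tet2 KO cells, against 0.893% and 3.31% of control cells. Cells of this kind entered the class by a marker rule set after the clusters were seen.

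C3 was higher in Tet2 KO mice within 2 of the 3 sub-clusters tested. In sub-cluster 7 it stood at 909.5 and 598 CPM in Tet2 KO mice, against 172 and 243 CPM in control mice, a log2 fold change of 1.93 (SE 0.224, adjusted p = 0.000989). In sub-cluster 0 it stood at 112 and 113 CPM in Tet2 KO mice, against 59.4 and 48.7 CPM in control mice, a log2 fold change of 1.09 (SE 0.163, adjusted p = 0.00147). Groups did not overlap in either. Both calls remained under the 8 alternatives run for sub-clusters, which were RLE factors, no count filter, DESeq2, the replicate block and each mouse left out in turn. In sub-cluster 11 C3 was not called (log2 fold change -0.76, adjusted p = 0.753), though it was called lower without control mouse 1 (log2 fold change -1.48, adjusted p = 9.79e-09) and had the other sign without control mouse 2 (log2 fold change 0.92, adjusted p = 0.0524). In sub-cluster 7, 3 of 9 members were called (6.20% of 8872 genes), with C3ar1 and C5ar1 lower, and in sub-cluster 0 there were 2 of 9 (7.25% of 9817 genes), with Cfp lower. Sub-cluster 6, with 24 cells in control mouse 2, had too few cells for the test, and its C3 level was 301 and 285 CPM in Tet2 KO and 191 and 225 CPM in control mice.

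Both receptors were lower in Tet2 KO cells of sub-cluster 7, and no C1q chain passed the test there. C3ar1 stood at 30.6 and 34.1 CPM in Tet2 KO mice, against 140 and 189 CPM in control mice, and fell by 2.26 on the log2 scale (SE 0.255, adjusted p = 0.000619). C5ar1, at 57.4 and 43.0 CPM in Tet2 KO mice against 144 and 144 CPM in control mice, fell by 1.46 on the log2 scale (SE 0.213, adjusted p = 0.00237), a call lost without Tet2 KO mouse 2 (adjusted p = 0.0571). C1qb stood at 1208 and 286 CPM in Tet2 KO mice, against 3415 and 5066 CPM in control mice. Its groups were well apart, but the Tet2 KO mice differed so much that no C1q chain passed the test with all mice (adjusted p = 0.116 to 0.248), whereas all 3 chains did without Tet2 KO mouse 1 or without Tet2 KO mouse 2 (adjusted p at most 0.0123 and 0.0417). Cfb was abundant here, at 557 and 592 CPM in Tet2 KO and 488 and 421 CPM in control mice, and was not called (adjusted p = 0.160).

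In sub-cluster 0 properdin was the 1 member that edgeR called lower with all mice, though C5ar1 and C4b had larger log2 falls (-1.07 and -2.47). C4b did not pass (adjusted p = 0.203). Both C5ar1 and C4b were called lower under 3 of the 4 alternatives that kept all mice. DESeq2 called 4 of 9 members, 1 of them higher, and 437 genes of this sub-cluster in all. Cfp stood at 159 and 137 CPM in Tet2 KO mice, against 352 and 229 CPM in control mice (log2 fold change -0.93, SE 0.201, adjusted p = 0.0242), a call lost without Tet2 KO mouse 1 (adjusted p = 0.175) or mouse 2 (adjusted p = 0.218). C3ar1, at 153 and 104 CPM in Tet2 KO and 178 and 193 CPM in control mice, and C5ar1, at 120 and 83.9 CPM in Tet2 KO and 275 and 162 CPM in control mice, did not pass (adjusted p = 0.126 and 0.110). In sub-cluster 6, which was not tested, both receptors were low in Tet2 KO cells. C3ar1 stood at 2.57 and 3.36 CPM in Tet2 KO mice, against 77.6 and 202 CPM in control mice. C5ar1 stood at 38.9 and 29.1 CPM in Tet2 KO mice, against 101 and 150 CPM in control mice. The 3 C1q chains there summed to 69.8 and 1.12 CPM in Tet2 KO mice, against 472 and 1016 CPM in control mice. The part of other macrophages or their RNA in these receptor values was not tested. Of the other listed genes in sub-cluster 0, Itgax and Cd93 were higher and Itgam lower in Tet2 KO mice (log2 fold changes 0.77, 1.15 and -0.74). In sub-cluster 11, cycling cells with Elane, 0.207% of 7714 genes and none of 8 members were called by edgeR, 3 members being lower at an unadjusted p under 0.05 (18.1% of all genes) and 2 called by DESeq2.

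**Figure D3:**
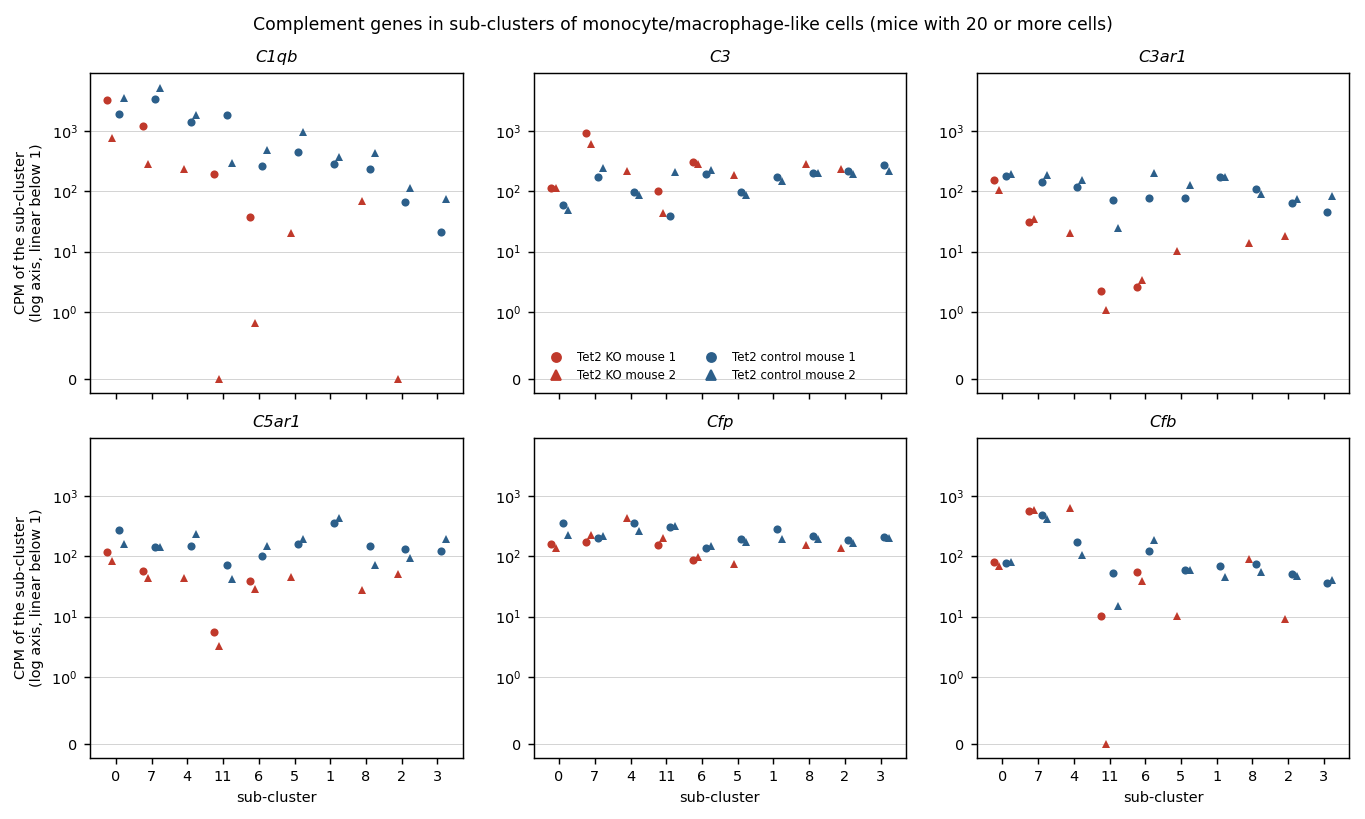
Complement levels by sub-cluster of the monocyte/macrophage-like class. Each panel is 1 gene, the vertical axis is CPM on a log scale that is linear below 1, and points are mice with at least 20 cells in the sub-cluster, Tet2 KO left of control. C3 is higher in Tet2 KO mice in sub-clusters 0 and 7, and C3ar1 is lower in Tet2 KO mice in sub-cluster 7 and, without a test, in sub-cluster 6.

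Of the wider list of 52 complement genes, 29 could be tested in monocyte/macrophage-like cells, and 2 were higher and 7 lower in Tet2 KO mice, members included. Of all genes tested in these cells, 6.81% were called higher and 7.94% lower. Of 9 receptors tested, 1 was higher and 4 were lower. Itgam, the alpha chain of complement receptor 3, stood at 158 and 152 CPM in Tet2 KO mice, against 269 and 293 CPM in control mice (log2 fold change -0.96, adjusted p = 0.00363), and the second C5a receptor gene C5ar2 was lower as well (log2 fold change -1.50, adjusted p = 0.0116). Itgb2, the partner chain of Itgam, and the other alpha chain Itgax were not called. Cd93, once described as a C1q receptor, was higher, at 108 and 88.9 CPM in Tet2 KO mice against 49.9 and 47.3 CPM in control mice (log2 fold change 0.91, adjusted p = 0.00470). The decay regulator Cd55 was called higher on 9 and 18 UMIs in Tet2 KO mice, against 14 and 3 UMIs in control mice. The classical pathway had 1 lower of 6 tested and the alternative pathway 1 lower of 3, both members named above. None of 3 lectin pathway and 2 terminal pathway genes was called, and in lists this short 0 or 1 call lies near the share over all genes. No call of the wider list remained without Tet2 KO mouse 2, where no gene was called.

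Neutrophil-like cells had the highest C5ar1, which did not pass the test there. It stood at 882 and 674 CPM in Tet2 KO mice, against 917 and 761 CPM in control mice, with overlapping groups (log2 fold change -0.20). The genotype effect on C5ar1 differed between the classes: the effect in monocyte/macrophage-like minus that in neutrophil-like cells was -1.43 on the log2 scale (SE 0.226, adjusted p = 0.000578; 9.44% of 11716 genes had such a difference), a call that was lost without Tet2 KO mouse 1 (adjusted p = 0.0753). The sub-cluster mix of the monocyte/macrophage-like class differed between genotypes, and its part in this C5ar1 difference was not tested. C3 stood at 126 and 148 CPM in Tet2 KO and 174 and 168 CPM in control neutrophil-like cells. Cfp stood at 155 and 133 CPM in Tet2 KO and 148 and 136 CPM in control ones. Neither gene was called there (C3 adjusted p = 0.284). The 3 C1q chains were the members called lower, 3 of 8 tested (4.17% of 8795 genes were called lower), on 3, 6 and 3 UMIs of C1qa, C1qb and C1qc in Tet2 KO mice together, against 141, 215 and 109 UMIs in control mice. C3ar1 was not called either (adjusted p = 0.0751). These are the low counts described above, and the calls were lost when doublets were kept (adjusted p = 0.251 to 0.367), that of C1qc also without Tet2 KO mouse 1 (adjusted p = 0.0694). Cfb reached 47.1 CPM in Tet2 KO mouse 2, from 45 UMIs in 1.00% of its neutrophil-like cells, and 2.17 CPM in Tet2 KO mouse 1, against 5.46 and 3.29 CPM in control mice. Cd93 was higher here too, at 68.5 and 58.7 CPM in Tet2 KO mice, against 13.8 and 8.37 CPM in control mice (log2 fold change 2.44, adjusted p = 0.00277).

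Conventional dendritic-like cells showed lower properdin and receptors in Tet2 KO mice, 3 of 7 members tested (5.49% of 9775 genes were called lower). Cfp stood at 113 and 199 CPM in Tet2 KO mice, against 457 and 466 CPM in control mice (log2 fold change -1.50, SE 0.262, adjusted p = 0.0195), and the call was lost without control mouse 1 or control mouse 2 (adjusted p = 0.169 in both). C3ar1 had 1 UMI in Tet2 KO mice together against 40 UMIs in control mice, a control level 94.8 times the Tet2 KO level with an exact 95% counting interval of 16.1 to 3838. C5ar1 had 6 UMIs in Tet2 KO mice against 35 UMIs in control mice, a control level 13.8 times the Tet2 KO level with an interval of 5.76 to 40.2, and its call was lost without control mouse 2 (adjusted p = 0.0765). Such intervals cover counting error alone. The log2 genotype effect on C3ar1 was 5.28 higher in monocyte/macrophage-like than in conventional dendritic-like cells (adjusted p = 0.000150), a test that called 4.56% of 11670 genes. The receptor counts of the control cells amount to 9.98 to 12.5 CPM, and their C1q level was higher too, at 479 and 161 CPM for the 3 chains summed, against 70.3 and 14.4 CPM in Tet2 KO mice. The part of monocyte/macrophage RNA in these receptor counts was not tested, nor was that of the sub-cluster mix in the C3ar1 difference. Itgam was lower and Cd55 higher in this class.

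In T-like cells every member was low, while B-like cells held the Cfp given above and plasma-like cells, 37 to 54 per mouse, held some C1q UMIs. The 3 chains summed to 102 and 1.04 CPM in Tet2 KO plasma-like cells, against 389 and 169 CPM in control ones. That is 19.2% and 0.496% of the library level in Tet2 KO mice, against 21.7% and 9.62% in control mice. C1qa, C1qb and C1qc made up 29.4%, 45.0% and 25.6% of these UMIs in control mouse 1 and 26.5%, 50.0% and 23.5% in control mouse 2. How much of this C1q was free RNA and how much the cells' own was not tested. In T-like cells 3 of 5 members tested were called lower (0.963% of 12145 genes), all of them C1q chains at the levels given above, and each was lost without Tet2 KO mouse 1 (adjusted p = 0.155 to 0.203) or mouse 2 (adjusted p = 0.0855 to 0.114) and under the stricter cell filter (adjusted p = 0.946 to 0.994). The calls of C1qa and C1qb were also lost with doublets kept (adjusted p = 0.0634 and 0.0748), and that of C1qc without control mouse 2 (adjusted p = 0.0904) and at resolution 2 (adjusted p = 0.0508). In plasma-like cells 1 of 5 was called lower (0.699% of 6149 genes). This was C5ar1, with no UMI in Tet2 KO mice and 31 UMIs in control mice. It was 13.8-fold lower when 3 counts over both mice are taken as the floor, and at least 10.6-fold lower by the exact 95% counting interval. The call was lost without either Tet2 KO mouse, without control mouse 2 and with the replicate block in edgeR (adjusted p = 0.162 with the block). The part of monocyte/macrophage RNA in the plasma-like C5ar1 counts was not tested. In B-like cells edgeR called 0.239% of 11316 genes and none of 6 members, 3 of them being lower at an unadjusted p under 0.05 (10.9% of all genes) and 1, C1qb, called by DESeq2 (adjusted p = 0.0326). C1qa and C1qb were called lower with doublets kept, under the stricter cell filter and with complement genes kept in clustering (adjusted p = 0.0188 to 0.0486), and without Tet2 KO mouse 1 (adjusted p = 0.0213 and 3.77e-09). C1qb was also called without Tet2 KO mouse 2 (adjusted p = 0.0248) and Cfp without control mouse 1 (adjusted p = 0.000357). The 3 chains summed to 15.1 and 2.87 CPM in Tet2 KO B-like cells, against 33.5 and 47.0 CPM in control ones. As a share of the library level this is 2.84% and 1.37% in Tet2 KO mice, against 1.86% and 2.67% in control mice. The part of free RNA in the B-like C1q counts was not tested. No member passed the count filter in NK-like cells, where 0.840% of 8575 genes were called. Among the other listed genes, Cr2, complement receptor 2 of B cells, stood at 53.8 and 56.5 CPM in Tet2 KO and 56.8 and 84.7 CPM in control B-like cells, and Cd55 at 358 and 306 CPM in Tet2 KO and 286 and 165 CPM in control B-like cells. C1qbp, Cr1l and Itgb2 were detected in every class, with Itgb2 highest in NK-like cells at 434 CPM on average. Fcnb reached 20.8 CPM on average in neutrophil-like and Clu 172 CPM in unnamed cells.

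**Figure D4:**
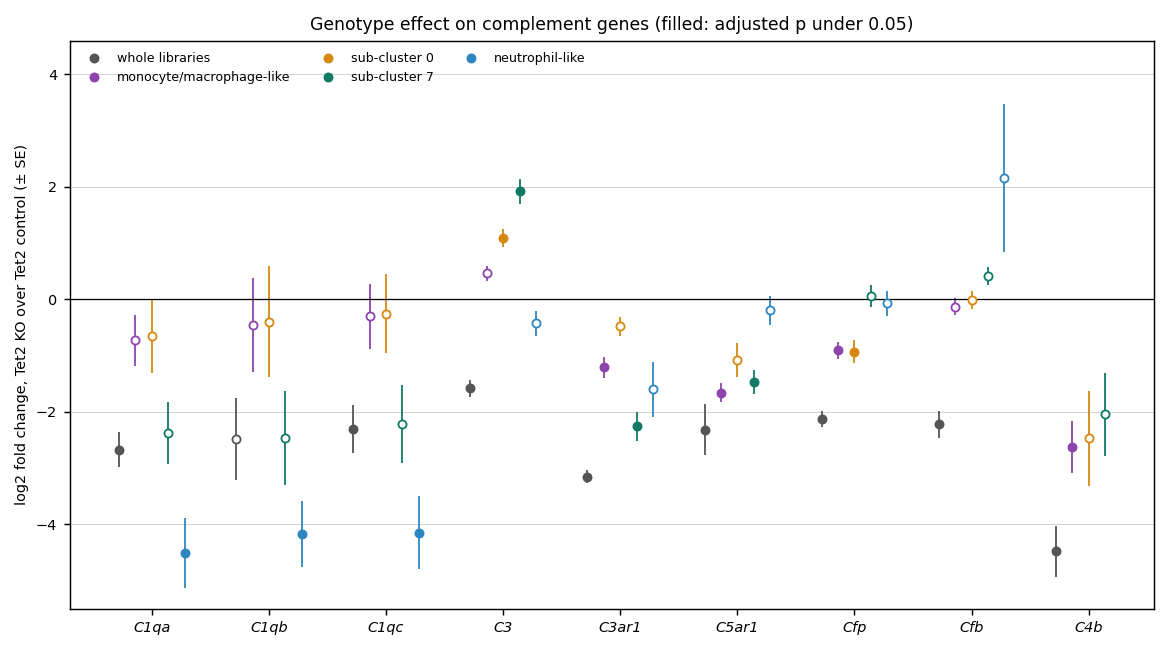
Log2 fold change of the 9 complement genes, Tet2 KO over control, with bars of 1 SE. Columns are the whole libraries, monocyte/macrophage-like cells, sub-clusters 0 and 7 and neutrophil-like cells, and filled points have an adjusted p under 0.05. C3 is negative in whole libraries and positive in monocyte/macrophage-like cells and both sub-clusters.

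Whole libraries gave a different picture from single classes. Summed over all cells, C3 stood at 52.0 and 50.8 CPM in Tet2 KO mice, against 116.8 and 147 CPM in control mice (log2 fold change -1.58, adjusted p = 0.00101), the reverse of its sign within monocyte/macrophage-like cells. C3ar1 stood at 12.2 and 10.7 CPM in Tet2 KO mice, against 86.0 and 88.5 CPM in control mice (log2 fold change -3.15, adjusted p = 0.000301). All 9 members were lower in the Tet2 KO libraries and 8 passed the test, C1qb being the exception (adjusted p = 0.0794), where 23.6% of 16818 genes were called lower. The calls of C1qa, C1qc and C5ar1 were lost without control mouse 1 or control mouse 2 (adjusted p = 0.0667 to 0.236), those of C1qc and C5ar1 also with no count filter (adjusted p = 0.0672 and 0.0778). C1qb was called by DESeq2 (adjusted p = 0.00294) and without Tet2 KO mouse 1 or mouse 2 (adjusted p = 0.0136 and 0.0144). In such sums, fewer cells of a type and less RNA per cell cannot be told apart. Each class, the unnamed cells taken as a class, was then weighted by 1 common mix, its mean share of UMIs over the 4 mice. The ratio of Tet2 KO to control means moved to 1.30 for C3, 0.944 for Cfb and 0.620 for C1qa. The sorted libraries gave 0.390, 0.249 and 0.184. The mix of cells inside each class was left as it was and differed between genotypes, so these ratios are not levels per cell. Of the wider list, 35 genes could be tested in whole libraries, with 4 higher (Cr2, Cd55, Cd46 and Serping1) and 17 lower, among them the 8 members and C1ra, Fcnb, Colec12, C5ar2, Itgam, Itgb2, Vsig4 and Cd93. The ratio with the common mix was 0.458 for C3ar1, 0.492 for C5ar1, 0.524 for Cfp and 0.175 for C4b.

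**Figure D5:**
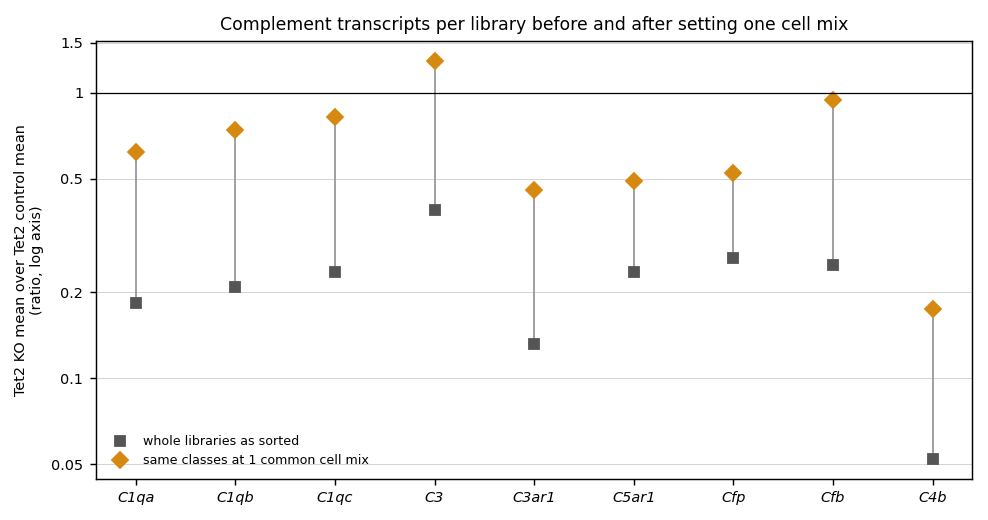
Ratio of the mean CPM in Tet2 KO libraries to that in control libraries for each of the 9 genes, as sorted and with classes weighted to 1 common mix, on a log axis. With the common mix C3 moves above 1 and Cfb close to 1, while C3ar1, C5ar1, Cfp and C4b stay below 1. The mix of cells inside each class, the unnamed cells included, is left as it was.

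The cells that supplied each member's UMIs differed accordingly. Neutrophil-like cells held 73.3% and 51.4% of the C5ar1 UMIs in Tet2 KO libraries, against 23.3% and 20.4% in control libraries. Monocyte/macrophage-like cells held 40.1% and 45.0% of the Cfp UMIs in Tet2 KO libraries, against 89.4% and 83.6% in control libraries, and conventional dendritic-like cells 17.5% and 25.8% in Tet2 KO libraries, against 5.12% and 4.43% in control libraries. For C1qa the monocyte/macrophage-like share was 78.0% and 69.0% in Tet2 KO and 95.2% and 96.3% in control libraries, most of the rest lying in unnamed sub-clusters led by markers of another class (18.8% and 29.5% in Tet2 KO and 3.39% and 2.69% in control libraries). With those sub-clusters kept in the class, an alternative chosen after seeing the data, C5ar1, C3ar1, Cfp and C4b were again the members called.

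Genes whose pattern over the 32 sums of 8 classes and 4 mice was most like that of a member were named as a description, among 5711 genes with a mean of at least 20 CPM. The mean of the C1q chains was followed most closely by Fcgr1 (Pearson r = 0.855), Lpl, Trem2, Ccl2 and Fn1. C3 was followed by Slc11a1 (r = 0.969), Fcgr4, Hacd4, F10 and Pla2g7, and C3ar1 by Vcan (r = 0.939), Fn1, Lpl, Trem2 and Plcb1. C5ar1 was followed by Clec4e (r = 0.972), Arg2, Trem1, Mmp8 and Csf3r, and Cfp by Ctsz (r = 0.958), Plbd1, Spi1 and Pirb. The sums share libraries and classes, so these values describe the pattern and carry no test.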

How the data were processed

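Gene expression libraries of sorted CD45+ cells from liver metastases of 2 Vav1CreTet2KO and 2 Tet2fl/fl control mice were analysed. The 4 T cell receptor libraries were not used here. The authors deposited UMI counts per gene and barcode, unscaled, made with Cell Ranger 8.0.1 on GRCm39 per the file headers and the submitters' processing notes, which also name Seurat 5.0.1 and R 4.4.1. The deposited barcode and feature lists hold names and no measurement, and the sources used here do not give the cell calling settings or the annotation release.

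Kept were cells with 200 or more genes and mitochondrial UMIs of no more than 10%. Scrublet scores were cut at 0.8% doublets per 1000 cells in every library, since the automatic threshold marked none in Tet2 KO mouse 1, and 904, 1062, 1179 and 1413 cells of Tet2 KO mice 1 and 2 and control mice 1 and 2 were removed. Counts scaled to 10000 per cell were clustered (scanpy 1.11.5, leidenalg 0.10.2: 2000 variable genes, 30 components, 20 neighbours, resolution 1), with the 52 complement genes left out. A cluster took a name when 3 or more fixed markers, more than for any other class, were at least 2-fold higher and found in 10% of its cells. Clusters led by another class's markers or of low depth were left unnamed, as were all others. A low-UMI cluster with monocyte/macrophage markers, 252 and 189 Tet2 KO and 216 and 189 control cells, thus stayed unnamed. Monocyte/macrophage-like cells were clustered again (20 components, resolution 0.8), and sub-clusters led by another class's markers left the class. Clusters with too few class markers were also tried against markers of monocyte and macrophage states, a rule set after the clusters were seen. This rule placed a cycling cluster with Elane in the monocyte/macrophage-like class.

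UMIs were summed per class and mouse where every mouse had at least 30 cells, which left out plasmacytoid dendritic-like cells. CPM are plain UMIs per 1000000 of those cells' UMIs. The genotype tests used edgeR 4.0.16 (quasi-likelihood, filterByExpr, TMM, Benjamini-Hochberg over all genes of a fit, two-sided, threshold 0.05), and effects between classes by an interaction term. SE is the log2 fold change over the root of F. Shares of cells were taken after thinning to 1000 UMIs, with shallower cells left out, and compared by exact two-sided permutation. Intervals are exact at 95% and cover counting error only. Scripts were tested on simulated counts with known 2-fold and 4-fold changes. The false share of calls at the 0.05 threshold was 5.88% (T-like) to 14% (sub-cluster 0), and 12.7% in monocyte/macrophage-like cells, above the nominal level. Of 2-fold changes, 58.2% were recovered in monocyte/macrophage-like cells. Only 13.8% were recovered in neutrophil-like, 5.21% in plasma-like and 7.22% in sub-cluster 11 cells, where a missing call says little. Of 4-fold changes, 63.3% to 98% were recovered. Named were the members, listed genes with a mean of at least 20 CPM or an adjusted p under 0.05, and the 5 most alike genes per pattern, except that some genes are not reported here. Members and gene lists were chosen with earlier results of these data known.

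Alternatives were RLE factors, no count filter, DESeq2 1.42.0, the replicate number as a block, each mouse left out and doublets kept. Others were a stricter cell filter (500 genes, 5% mitochondrial UMIs), complement genes kept in clustering, Leiden resolutions 0.5 and 2, and thinning to 2000 UMIs or none. In monocyte/macrophage-like cells, the low-UMI cluster was added, or sub-clusters led by another class's markers were kept, both chosen after seeing the data. Whole libraries were also fitted with all deposited barcodes.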

Additional observations from a re-analysis of the deposited data

Results flagged for a closer look

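The genotype effect on 7 member and class pairs differed by a test of the difference itself, an interaction term in edgeR across all genes with Benjamini-Hochberg adjustment. Each value is the log2 effect of Tet2 KO in monocyte/macrophage-like cells minus that in the other class. The sub-cluster mix of the monocyte/macrophage-like cells differed between genotypes, and its part in these values was not tested. Against neutrophil-like cells, where 9.44% of 11716 genes differed, the value was 4.07 for C1qa, 4.06 for C1qb and 4.16 for C1qc (adjusted p = 0.000147, 3.65e-05 and 0.000107). These differences rest on 3, 6 and 3 UMIs in Tet2 KO neutrophil-like cells together. For C3 the value was 0.92 (adjusted p = 0.0208), C3 being above the control level in Tet2 KO monocyte/macrophage-like cells and below it in Tet2 KO neutrophil-like cells, with neither effect called on its own. For C5ar1 it was -1.43 (adjusted p = 0.000578). Without Tet2 KO mouse 1 these 5 calls were lost (adjusted p = 0.0720 to 0.377), and that of C3 also without Tet2 KO mouse 2 (adjusted p = 0.0670).

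Against conventional dendritic-like cells, where 4.56% of 11670 genes differed, the value was 5.28 for C3ar1 (adjusted p = 0.000150) and 2.11 for C5ar1 (adjusted p = 0.0194). Both rest on few UMIs in Tet2 KO dendritic-like cells, 1 and 6. The C5ar1 call was lost with DESeq2 (adjusted p = 0.106), without Tet2 KO mouse 2 (adjusted p = 0.130) and without control mouse 2 (adjusted p = 0.114).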

How the results depend on the processing

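Of 1074 alternative values of single genes, 893 kept their direction and their side of the threshold, 100 newly passed it, 52 no longer did and 29 changed sign. The number of genes called moved with the mice used. With 1 mouse left out it lay between 0 and 3099 in monocyte/macrophage-like, 65 and 1966 in neutrophil-like, 240 and 1014 in conventional dendritic-like, 56 and 1451 in B-like, 6 and 68 in plasma-like, 37 and 1326 in T-like and 72 and 685 in NK-like cells. The same range was 133 to 1369 in sub-cluster 0, 116 to 787 in sub-cluster 7, 0 to 1695 in sub-cluster 11 and 3033 to 7911 in whole libraries, and 139 to 1777 and 296 to 510 for the difference from neutrophil-like and from conventional dendritic-like cells.

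With no count filter, 1442 genes were called in neutrophil-like, 1644 in conventional dendritic-like, 59 in B-like, 472 in plasma-like, 1029 in T-like and 355 in NK-like cells, 1108 in sub-cluster 0, 1029 in sub-cluster 7 and 903 in sub-cluster 11. DESeq2 called 505 in conventional dendritic-like, 81 in B-like, 94 in plasma-like and 398 in T-like cells, 437, 353 and 170 in sub-clusters 0, 7 and 11, and 714 and 258 for the differences from neutrophil-like and conventional dendritic-like cells. Keeping doublets gave 89 in plasma-like, 677 in T-like and 131 in NK-like cells. Clustering with complement genes gave 872 in plasma-like cells, and the stricter cell filter 41 in NK-like cells. Resolution 0.5 gave 9 in B-like and 801 in NK-like cells, and resolution 2 gave 355 in NK-like cells. The cause was not tested.

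The replicate numbers did not pair the mice (correlations of same-numbered deviations -0.11 to 0.10). With the replicate block, 2270 genes were called in monocyte/macrophage-like cells (C3 adjusted p = 0.0439), 359 in B-like, 26 in plasma-like and 444 in T-like cells, and 467 and 141 in sub-clusters 0 and 11. C1qa, C1qb, C1qc and Cfp were then called lower in B-like cells (adjusted p = 7.63e-12 to 0.0104), and C5ar1 in plasma-like cells no longer was (adjusted p = 0.162). The B-like C1q counts are low, and the part of free RNA in them was not tested.

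The log2 values that changed sign when 1 mouse was left out lay in these ranges. In monocyte/macrophage-like cells they were -1.88 to 0.24 for C1qb, -1.26 to 0.26 for C1qc and -0.29 to 0.081 for Cfb. In neutrophil-like cells they were -0.48 to 0.023 for C5ar1, -0.27 to 0.074 for Cfp, -1.04 to 3.25 for Cfb and -0.48 to 0.045 for Tet2. C3 in conventional dendritic-like cells lay between -1.36 and 0.34, Tet2 in plasma-like cells between -0.67 and 0.66, and Cfp in T-like cells between -1.46 and 0.066. In sub-cluster 0 the ranges were -1.71 to 0.27 for C1qb, -1.09 to 0.27 for C1qc and -0.077 to 0.059 for Cfb, in sub-cluster 7 -0.22 to 0.25 for Cfp, and in sub-cluster 11 -1.48 to 0.92 for C3. The differences from neutrophil-like cells lay between -0.23 and 0.90 for C3ar1, -3.31 and 0.82 for Cfb, and -8.45 and 4.46 for C4b. Those from conventional dendritic-like cells lay between -0.47 and 0.012 for Tet2 and -6.97 and 5.26 for C4b. Keeping doublets gave C5ar1 0.10 and Cfb -0.11 in neutrophil-like and Tet2 -0.31 in plasma-like cells, and no count filter gave Cfp -0.043 in sub-cluster 7. Of 39 alternative shares, 35 kept their direction. In neutrophil-like cells the share of cells with C3 was 3.55 percentage points higher in Tet2 KO mice without thinning. That with C5ar1 was 8.44 points higher at 2000 UMIs, 12.4 without thinning and 3.03 with doublets kept. Median depths of neutrophil-like cells were 2664 and 2204 UMIs in Tet2 KO, against 1737 and 1709.5 UMIs in control mice. Shares without thinning thus compare unequal depths, and thinning to 2000 UMIs leaves out cells below that depth.

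With 2 mice per genotype, 1 mouse can decide a call, and C4b and the low C1q counts outside monocyte/macrophage-like cells are limited by depth. The fit of plasma-like cells at resolution 0.5 and all fits of plasmacytoid dendritic-like cells were not run, control mouse 1 having 1 plasmacytoid dendritic-like cell.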
